A study of Mus musculus with 14 samples.

Results

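The 10 apolipoprotein genes Apoa1, Apoa2, Apoa4, Apoa5, Apob, Apoc1, Apoc2, Apoc3, Apoe and Apom were examined in mouse liver between weaning and young adulthood. They were chosen by name, as the main protein components of plasma lipoproteins that liver makes. Through the RefSeq accessions on the arrays, 9 of them were matched to 11 probes, among 19751 genes named in this way. No probe was matched to Apoc2, which was not analysed here. All 9 were well above background in both dyes on all 14 arrays, so none was lost to a filter on dim probes.

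Liver RNA came from untreated CD-1 mice, an outbred stock, of 6 groups: males of 3, 4 and 8 wk (M3, M4, M8) and females of the same ages (F3, F4, F8). Each group had 2 RNA pools, of 5 mice each at 3 wk and of 6 mice each at 4 and 8 wk. Pools of 2 groups were hybridized against each other on 2-color arrays in 7 comparisons: males against females at each age (M3/F3, M4/F4 and M8/F8), and within each sex the adult against a younger age (F8/F4, F8/F3, M8/M4 and M8/M3). Separate pools and exchanged dyes were used for both arrays of a comparison, and the same 12 pools served all 7, so that comparisons with a group in common are not independent. A pool averages over its mice, the spread between single mice was not measured, and the p-values below measure the spread between pools and arrays. The main fit took the arrays as independent although they share pools.

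Lipoproteins carry triglyceride and cholesterol through the blood, and their apolipoproteins decide where the load goes. Apolipoprotein B is the scaffold of the very low density lipoproteins that hepatocytes secrete, apolipoproteins A-I and A-II build high density lipoprotein, and apolipoprotein E is the ligand for uptake of remnants by liver receptors. The C apolipoproteins and apolipoprotein A-V act on lipoprotein lipase and remnant uptake: C-I and C-III slow the clearance of triglyceride and A-V speeds it. Between weaning and adulthood the diet of a mouse changes from fat-rich milk to chow rich in carbohydrate, and sex differences of liver gene expression appear at puberty.

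Apoa1, Apoc3, Apoa4 and Apoa5 lie next to each other on chromosome 9 in the RefSeq annotation of GRCm38.p6, with no other annotated gene between them. Apoc2, Apoc4, Apoc1 and Apoe lie next to each other on chromosome 7. The RefSeq promoter windows of Apoa1, Apoa4 and Apoa5 are shown because the female age ratios of these neighbors had opposite signs (below), each from 250 bases before the transcription start to 50 bases from the start on, 5′ to 3′ on the + strand, at chr9:46228380-46228679, chr9:46240594-46240893 and chr9:46268358-46268657. Capitals mark matches to the searched motifs:
Apoa1: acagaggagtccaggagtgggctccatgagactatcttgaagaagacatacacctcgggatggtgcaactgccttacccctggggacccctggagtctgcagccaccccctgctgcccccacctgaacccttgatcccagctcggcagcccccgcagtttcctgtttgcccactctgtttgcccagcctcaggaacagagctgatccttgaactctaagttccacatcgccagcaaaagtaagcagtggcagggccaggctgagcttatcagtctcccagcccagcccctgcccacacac
Apoa4: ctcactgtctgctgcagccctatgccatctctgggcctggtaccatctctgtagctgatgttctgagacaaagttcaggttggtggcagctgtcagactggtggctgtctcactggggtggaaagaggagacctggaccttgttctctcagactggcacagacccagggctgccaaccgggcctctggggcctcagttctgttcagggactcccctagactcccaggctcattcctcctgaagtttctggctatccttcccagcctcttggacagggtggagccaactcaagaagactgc
Apoa5: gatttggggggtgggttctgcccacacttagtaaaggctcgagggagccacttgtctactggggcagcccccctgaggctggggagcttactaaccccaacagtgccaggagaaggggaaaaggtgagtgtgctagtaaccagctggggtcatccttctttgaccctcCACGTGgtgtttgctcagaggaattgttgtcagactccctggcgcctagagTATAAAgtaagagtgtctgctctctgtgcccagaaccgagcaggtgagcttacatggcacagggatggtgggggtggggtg

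The search covered 7 motifs on both strands: the TATA box TATAAA, the CCAAT box, the nuclear receptor half-site AGGTCA, the HNF4 site CAAAGTCCA, the STAT site TTCNNNGAA, the clock E-box CACGTG and the D-box TTATGTAA. Apoa5 held TATAAA beginning at position -31 from the start, and CACGTG, the E-box read by the clock and other basic helix-loop-helix factors, at -82. From a second annotated start of Apoa5 the same matches lie at -56 and -107. Among 32544 promoter windows of the same length, 13.6% held TATAAA and 7.17% held CACGTG. The windows of Apoa1 and Apoa4 held none of the 7. The shares of all windows with the other strings were 37.4% (CCAAT box), 16.2% (AGGTCA), 8.33% (STAT site), 0.931% (D-box) and 0.479% (HNF4 site). Only exact matches were searched, so a missing match does not show that a binding site is absent. Promoter windows were listed for 8 of the 10 genes, Apoc1 and Apoc3 being the exceptions.

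The arrays had 43020 spots each that were not controls, of which 55.2% to 77.2% were well above background in a given dye (median 66.5%), and none was saturated. Apolipoprotein mRNAs were among the brightest signals: Apoa1, Apoa2, Apoc1, Apoc3 and Apoe lay in the brightest 1% of the 15304 genes tested. Their highest signals reached 48.2% (Apoa1) to 85.5% (Apoc1) of the saturation value. Apoa4 and Apoa5 stayed under 2% of it, with highest values of 1.91% and 1.46%. Whether ratios are compressed at this brightness was not tested, which bears on the fold changes of the 5 brightest members. For all members except Apoa4 and Apoa5, the scanner software had taken the signals of the main probe from the scan at low gain and scaled them up.

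Bright probes also carried a dye effect, which bears on how single arrays are read. The model therefore held a dye term for each probe, the mean log2 excess of red over green. It was 0.46 for Apoc1 (SE 0.017), 0.30 for Apoa2, 0.29 for Apoe and 0.25 for Apoc3 (SE 0.018), against a median size of 0.051 over all tested genes and 0.13 in the brightest 1%. For these 4 genes the array with the numerator in red read higher in 7 of 7 comparisons. The dye term was 0.21 for Apoa4, 0.19 for Apob and under 0.1 for Apoa1, Apoa5 and Apom. Without the term Apoa4 in F8/F3 and Apoa5 in F8/F3 and F8/F4 were the only values of the 9 genes past an adjusted p of 0.05.

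**Figure D1:**
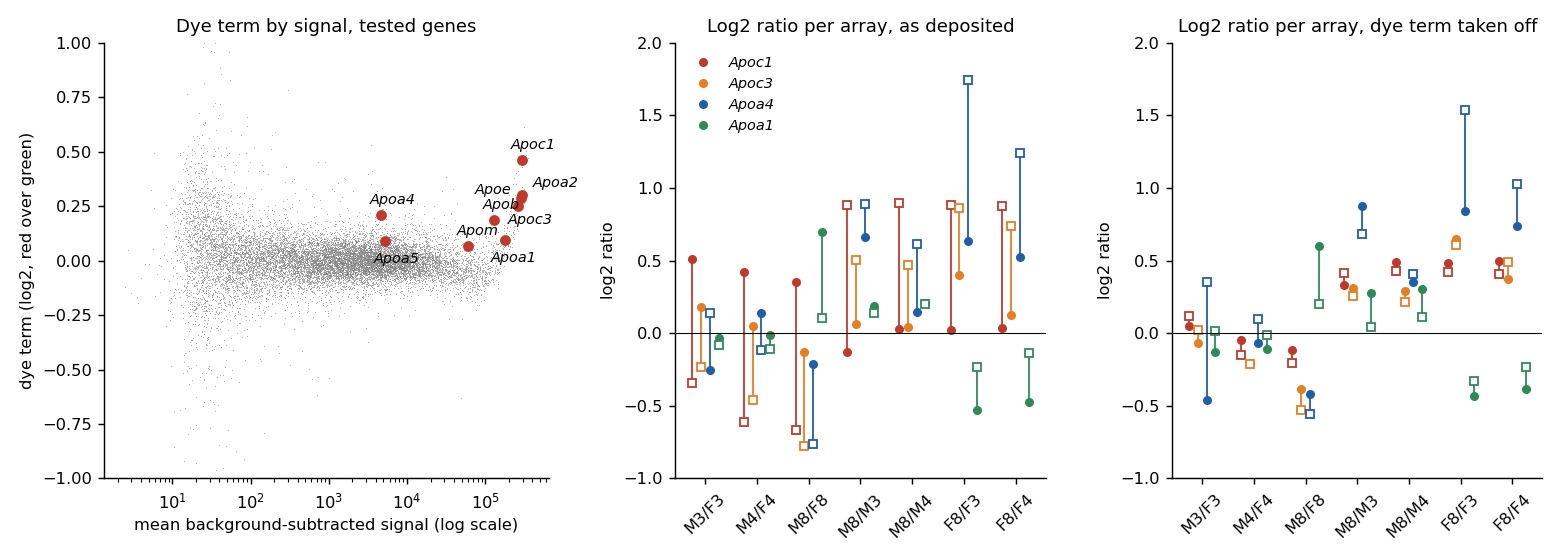
Left, dye term of each tested gene (log2, red over green) against its mean background-subtracted signal (log scale), with the 9 apolipoprotein genes in red; 33 genes with a dye term beyond 1 lie outside the axis. Middle and right, log2 ratio of Apoc1, Apoc3, Apoa4 and Apoa1 on both arrays of each comparison (filled circles, replicate 1; open squares, replicate 2), as deposited and with the dye term taken off: the 2 arrays of Apoc1 in M8/M3 moved from -0.13 and 0.88 to 0.33 and 0.42.

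A gene was called changed at an adjusted p below 0.05 (limma, Benjamini-Hochberg over all probes and comparisons) with a change of more than 1.5-fold in either direction, and "passed on p" means the adjusted p alone. Calls were made in the female age comparisons and in no other. In F8/F3, 2 of the 9 genes were called, Apoa4 and Apoc3, against 11.8% of all tested genes. In F8/F4, 1 was called, Apoa4, against a background of 6.04%. None was called in M8/M3 (background 17.9%), M8/M4 (10.9%), M8/F8 (6.4%), M4/F4 (1.59%) or M3/F3 (0.517%). At an unadjusted p below 0.05, limma had 6, 4, 6, 3 and 0 of the 9 in these 5 comparisons, and an error-weighted mean of both arrays called 1 in M8/M3 and none in the other 4.

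By p alone 6 of 9 passed in F8/F3, where 33.7% of all tested genes did, and all 6 were higher at 8 wk, where 17% of all genes were both past and higher. In F8/F4 5 of 9 passed, all higher at 8 wk (21.3% of all genes, 10.6% in that direction). In M8/M3 4 of 9 passed, all higher at 8 wk (42% and 21.7%), and in M8/M4 2 were higher and 1 lower (29.7% in both directions and 14.8% higher). In the sex comparisons 1 passed in M8/F8 and 1 in M4/F4, both times Apoc3 and lower in males (11.6% and 4.46% of all genes were past and lower in males, of 21.8% and 7.93% past in either direction), and none in M3/F3 (2.89%). The median log2 ratio of the 9 was 0.40 in F8/F3, 0.34 in F8/F4, 0.28 in M8/M3 and 0.21 in M8/M4, beside 0.017, 0.019, 0.013 and 0.015 over all tested genes. In bulk liver fewer cells of a type and less RNA per cell cannot be told apart.

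**Figure D2:**
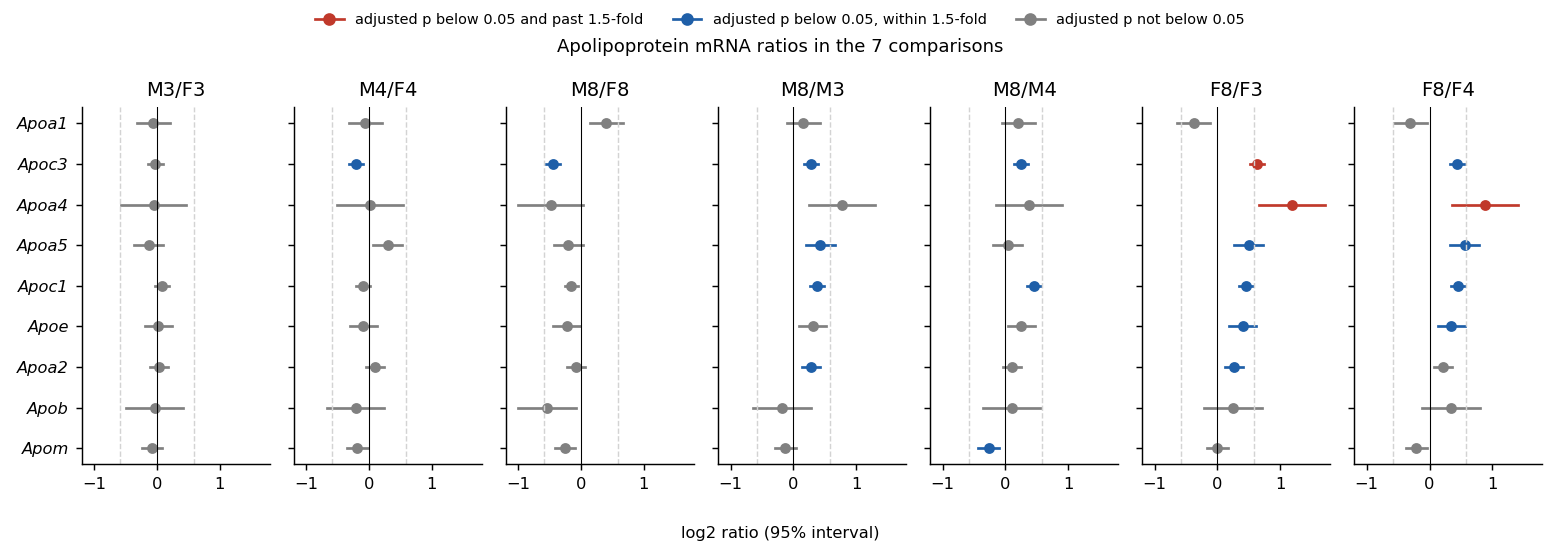
Log2 ratio (horizontal axis) with its 95% interval for the 9 genes in each of the 7 comparisons, from limma with a dye term; dashed lines mark 1.5-fold. Only Apoa4 in F8/F3 and F8/F4 and Apoc3 in F8/F3 are past both thresholds (red), the M3/F3 values all lie within 0.13 of 0, and Apoa1 lies left of 0 in both female age comparisons, where Apoa4 lies right of 0.

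Apoa4, which codes for a secreted apolipoprotein of gut and liver that rises with lipid load, showed the largest change. The log2 ratio in F8/F3 was 0.64 on the first array and 1.74 on the second, with a mean of 1.19 (SE 0.22), 2.28-fold, and an adjusted p of 0.0134 (limma). In F8/F4 the arrays read 0.53 and 1.24, with a mean of 0.88, 1.84-fold, and an adjusted p of 0.0405. Every array of both comparisons was higher at 8 wk, but the 2 arrays differed widely in size. Without the second array of F8/F3 the ratio was 0.79 and the adjusted p 0.138. Without any one of 10 arrays, all but those of M3/F3 and F8/F3, the adjusted p in F8/F4 lay between 0.068 and 0.27.

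In males Apoa4 read 0.67 and 0.89 in M8/M3, a mean of 0.78 and 1.71-fold, which missed the threshold at an adjusted p of 0.0622. It passed in a fit with the shared pools in the covariance (0.0333) and after normexp and loess (0.0298). In M8/M4 it was 0.14 and 0.61, a mean of 0.38 with an adjusted p of 0.352. The male arrays too were thus all above 0. The sex ratio at 8 wk was -0.21 and -0.76, lower in males on both arrays, with an adjusted p of 0.217. Apoa4 was also dimmer than most members: its processed signal had a median of 1660 in F3 and 3357 in F8, in arbitrary units.

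Apoc3, whose protein inhibits lipoprotein lipase and the uptake of remnants, had the smallest error among the called values. The F8/F3 arrays read 0.40 and 0.86, or 0.65 and 0.61 once the dye term was taken off. The mean was 0.63 (SE 0.048), 1.55-fold, with an adjusted p of 0.000487. It was called or passed in every alternative with a dye term, with log2 ratios of 0.60 to 0.73.

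The other age comparisons of Apoc3 passed on p and stayed under 1.5-fold. F8/F4 read 0.12 and 0.74 (mean 0.43, adjusted p 0.00186), M8/M3 0.062 and 0.51 (mean 0.28, adjusted p 0.00937) and M8/M4 0.040 and 0.47 (mean 0.25, adjusted p 0.0144). All 8 arrays were higher at 8 wk. In males the passes were lost under some alternatives, M8/M4 with the shared pools in the covariance (adjusted p 0.0552) or without either of its own arrays (0.0535 and 0.135), and M8/M3 after normexp and loess (0.0679) or without its own first array (0.0944). Apoc3 was the only member past the adjusted p in a sex comparison: M8/F8 was -0.13 and -0.78, a mean of -0.45 (0.73-fold, adjusted p 0.00155), and M4/F4 was 0.047 and -0.46, a mean of -0.21 (adjusted p 0.0303). At 4 wk the deposited ratios had opposite signs, and with the dye term taken off both were near -0.2. When the covariance held the shared pools, the 4 wk value no longer passed (adjusted p 0.105) and the 8 wk value did (0.00655). The 4 wk pass was also lost without any one of 6 arrays, those of M4/F4, M8/M3 and F8/F3 (adjusted p 0.053 to 0.155).

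Apoc1, a small exchangeable apolipoprotein that hinders remnant uptake and activates lecithin cholesterol acyltransferase, was the most uniform of all. The second array of each age comparison read 0.87 to 0.89 and the first -0.13 to 0.034, since the dye term enters both arrays with opposite signs. With the dye term taken off all 8 arrays lay between 0.33 and 0.50. The male means were 0.37 against 3 wk (adjusted p 0.00273) and 0.46 against 4 wk (0.00125), and the female means were 0.45 against 3 wk (0.00134) and 0.45 against 4 wk (0.00132), or 1.30- to 1.38-fold. With the shared pools in the covariance the adjusted p were higher, from 0.0139 in M8/M4 to 0.0299 in M8/M3. Males and females differed by 0.083 in M3/F3 and by -0.097 in M4/F4, and the M8/F8 ratio of -0.16 had an adjusted p of 0.0682. None of the 3 passed.

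Apoa5, whose protein stimulates lipolysis of triglyceride, passed on p in both female age comparisons and in 1 of the male ones, and the difference between the sexes was not past the threshold (below). In females it was higher at 8 wk than at 3 wk, with arrays of 0.34 and 0.66 (mean 0.50, adjusted p 0.0167), and than at 4 wk, with arrays of 0.50 and 0.62 (mean 0.56, 1.47-fold, adjusted p 0.0111). In males M8/M3 was 0.26 and 0.59 (mean 0.43, adjusted p 0.0299), but M8/M4 was -0.17 and 0.25, a mean of 0.037 (95% interval -0.20 to 0.27). The M4/F4 arrays read 0.42 and 0.18, both higher in males, while those of M3/F3 (-0.18 and -0.078) and M8/F8 (-0.24 and -0.17) were all lower in males as deposited. With the dye term taken off, the M3/F3 arrays were -0.27 and 0.012. None of the 3 sex ratios passed (adjusted p 0.0994 at 4 wk). The female passes of Apoa5 were lost without either array of the comparison itself (adjusted p 0.0667 to 0.153), and that in M8/M3 without any one of 8 arrays, those of M4/F4, M8/M3, F8/F3 and F8/F4 (0.0522 to 0.228).

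Apoe, which codes for the receptor ligand on remnants and lies beside Apoc1 on chromosome 7, was higher at 8 wk in females. In F8/F3 the arrays were -0.014 and 0.82, with a mean of 0.40 (1.32-fold, adjusted p 0.0289), and in F8/F4 0.0079 and 0.68, with a mean of 0.34 and an adjusted p of 0.0499. With the slide as a block neither F8/F3 (adjusted p 0.0621) nor F8/F4 (0.0908) passed. With the replicate as a block the F8/F4 value did not pass (adjusted p 0.0601). It was also lost without any one of 10 arrays, all but those of M3/F3 and F8/F3 (0.0603 to 0.288), and F8/F3 was lost without any one of 7, those of M8/M3, M8/M4 and F8/F4 and its own second (0.0516 to 0.264). M8/M3 and M8/M4 had means of 0.31 and 0.25, with adjusted p of 0.0722 and 0.129. The probe was spotted 10 times on each array, and the SD between spots was 0.023 to 0.044 (median 0.034).

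Among the genes of high density lipoprotein, Apoa1 had log2 ratios of opposite sign to those of its neighbors Apoa4, Apoc3 and Apoa5 in females, none past an adjusted p of 0.05. This gene codes for the main structural protein of the particle. F8/F3 was -0.53 and -0.23, a mean of -0.38 (0.768-fold, adjusted p 0.0657), and F8/F4 was -0.48 and -0.14, a mean of -0.31 (adjusted p 0.126). All 4 female arrays were lower at 8 wk. All 4 male arrays were higher, with 0.18 and 0.14 in M8/M3 (mean 0.16, adjusted p 0.441) and 0.21 and 0.20 in M8/M4 (mean 0.21, adjusted p 0.303). Its sex ratio was -0.057 in M3/F3 and -0.061 in M4/F4, but 0.40 in M8/F8, where the arrays read 0.70 and 0.10. The 8 wk value had an adjusted p of 0.056. The covariance with shared pools gave 0.0352 there and 0.0417 in F8/F3. Apoa1 was spotted 10 times on each array, with SDs between spots of 0.033 to 0.065, which measure the noise within an array only.

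Apoa2, the second protein of high density lipoprotein, was modestly higher at 8 wk. Its means were 0.28 in M8/M3 (arrays -0.052 and 0.61, adjusted p 0.0243) and 0.26 in F8/F3 (arrays -0.11 and 0.63, adjusted p 0.0322). They were 0.10 in M8/M4 and 0.21 in F8/F4, with adjusted p of 0.355 and 0.0648. A second probe of Apoa2 gave 0.37 and 0.34 in M8/M3 and F8/F3, and the log2 ratios of both probes had a Pearson correlation of 0.996 over the 14 arrays, which share the dye effect. In F8/F4 the second probe passed (0.26, adjusted p 0.0274). In the fit with shared pools the brighter probe was past the threshold neither in M8/M3 (0.0501) nor in F8/F3 (0.0651). Nor was it with the slide as a block (0.0525 in M8/M3 and 0.0638 in F8/F3). Without any one of 12 arrays, all but those of M3/F3, its F8/F3 value did not pass (0.0551 to 0.272), and M8/M3 did not pass without either of its own (0.0995 and 0.179).

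Apom, which codes for the carrier of sphingosine-1-phosphate on high density lipoprotein, was the only member lower at 8 wk with a pass. M8/M4 was -0.27 on the first array and -0.26 on the second (0.831-fold, adjusted p 0.0462), which did not pass after normexp and loess (0.0615), without the dye term (0.12), or without any one of 10 arrays, all but those of M8/F8 and M8/M3 (0.0672 to 0.324). F8/F4 was -0.26 and -0.16, a mean of -0.21 (adjusted p 0.102), M8/M3 was -0.13 (0.319) and F8/F3 was -0.0012 (1). At 8 wk the arrays of M8/F8 read -0.073 and -0.44, lower in males on both, with an adjusted p of 0.0519. This value passed with the replicate as a block (0.0381).

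Apob, the scaffold of very low density lipoprotein, had no value past the threshold, and its 2 probes gave different answers. The brighter one read -0.37 and -0.71 in M8/F8, a mean of -0.54 (adjusted p 0.125), where the dimmer one read a mean of 0.36. In F8/F3 the means were 0.25 and -0.68. Over the 14 arrays the signs of both probes agreed on 5, the median gap between them was 0.63, and the correlation was -0.087. The residual SD of the dimmer probe was 0.93 and that of the brighter one 0.29, against a median of 0.13 over all tested genes. No direction is therefore given for Apob.

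**Figure D3:**
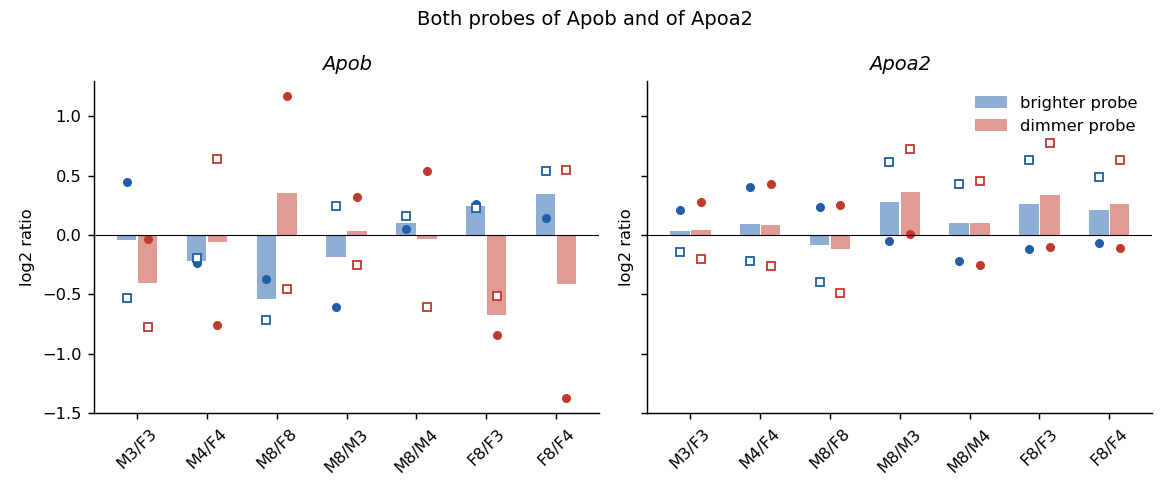
Log2 ratio of the 2 probes of Apob (left) and of Apoa2 (right) in the 7 comparisons (bars, mean of both arrays; filled circles, replicate 1; open squares, replicate 2). The probes of Apoa2 run together, and those of Apob have means of opposite sign in 5 of 7 comparisons.

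To set all 6 groups side by side, the level of each pool was derived from its loop of 7 arrays with the dye term taken off, on a log2 scale relative to the mean of the 6 pools of the same number. These levels use the same arrays as the ratios above and add no evidence to them. For Apoa2, Apoa4, Apoc1 and Apoe all 4 pools at 8 wk lay above all 8 younger pools, 4 of 9 genes beside 15.8% of all tested genes. The levels of Apoc1 were 0.35 and 0.34 in F8 and 0.25 and 0.22 in M8, and the younger pools lay between -0.22 and -0.067. Among the younger groups M4 was lowest, at -0.22 and -0.21, and the others lay between -0.16 and -0.067.

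Apoc3 was highest in F8, at 0.46 and 0.50, followed by M8 (0.087 and 0.022) and F4 (0.054 and 0.013), which overlapped, and then by F3, M4 and M3, which lay between -0.24 and -0.16. Apoa4 stood at 0.68 and 0.88 in F8 and at 0.25 and 0.34 in M8, and the 3 wk pools spread from -0.67 to -0.16. The 4 wk pools lay just above them, between -0.15 and -0.045, and the differences between 3 and 4 wk did not pass (below). Apoa1 was lowest in F8, at -0.34 and -0.20, below all 10 other pools, which lay between -0.051 and 0.26. Apoa5 was highest in F8 (0.38 and 0.33), and M4 (0.13 and 0.086) lay within the range of M8 (0.046 and 0.26) and above both pools of F4 (-0.20 and -0.19). Apoe ran from -0.22 to -0.020 in the younger pools and reached 0.26 and 0.36 in F8. Apom was highest in F4, at 0.19 and 0.27, and lowest in M8, at -0.14 and -0.30.

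**Figure D4:**
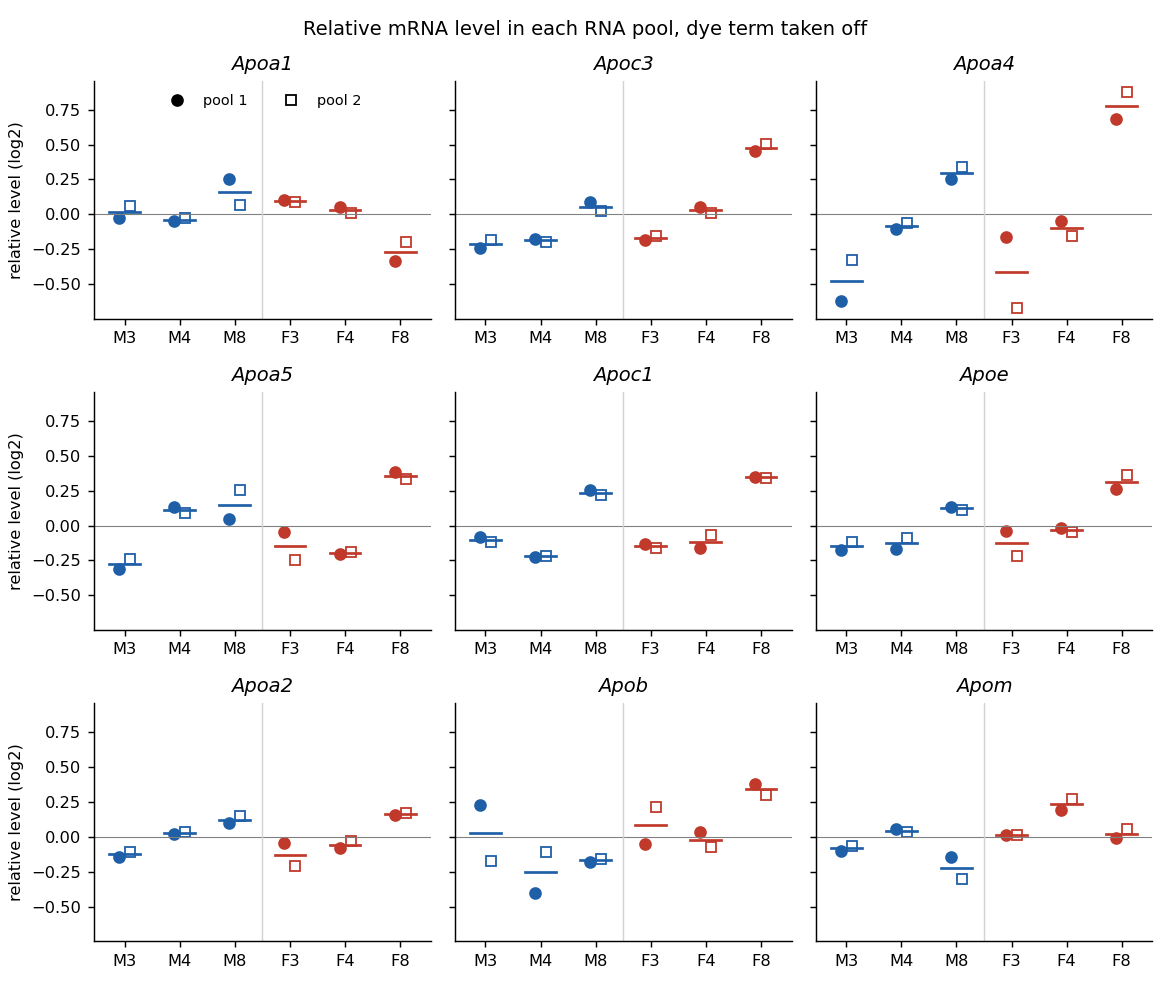
Relative mRNA level (log2, vertical axis) of the 9 genes in the 2 pools of each group (filled circles, pool 1; open squares, pool 2; lines, means; males blue, females red). F8 is the highest group for Apoc3, Apoa4, Apoa5, Apoc1, Apoe and Apoa2 and the lowest for Apoa1.

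Whether the change to 8 wk differed between the sexes was tested directly. For M8/M3 minus F8/F3 none of the 9 was called (background 3.36%) and 1 passed on p (6.52%), Apoc3 with a log2 difference of -0.35 (SE 0.067, adjusted p 0.0401), a smaller rise in males. With the replicate as a block the adjusted p of Apoc3 was 0.0565, in the fit with shared pools it was 0.127, and without any one of 12 arrays, all but those of M8/F8, it lay between 0.0514 and 0.179. The change of its sex ratio, M8/F8 minus M3/F3, was -0.43 (adjusted p 0.0193). It held with the replicate as a block (0.0308) and was lost with the shared pools in the covariance (0.0686) and without any of 3 arrays, both of M3/F3 and the second of M8/F8 (0.0561 to 0.0945). Apoa1 had the largest positive difference, 0.54 (SE 0.15, adjusted p 0.118). For M8/M4 minus F8/F4 none was called (1.34%) and none passed (2.11%). The differences there ran from -0.52 for Apoa5 (adjusted p 0.16) to 0.51 for Apoa1 (0.213), and 3 of 9 had an unadjusted p below 0.05. Around both loops of comparisons the members closed to within 0.16 (median gap 0.067).

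The weeks around weaning were read indirectly, as M4/M3 through the shared M8 pools and F4/F3 through the shared F8 pools. None of the 9 was called in either (0.292% and 0.0931% of all tested genes), with 1 each at an unadjusted p below 0.05. In males Apoa5 had a difference of 0.39 (95% interval 0.062 to 0.72, adjusted p 0.296) and Apoa4 one of 0.40 (adjusted p 0.695). In females Apoa4 stood at 0.31 (adjusted p 0.857) and Apoc3 at 0.20 (adjusted p 0.368).

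The genes most like the 2 called members, among 3544 called genes, were ranked by the correlation of their log2 ratios over the 14 arrays, which share pools, slides and dyes. For Apoa4 they were B2m (Pearson r 0.978), Tmtc4 (0.960) and Ncmap (0.942), and B2m and Tmtc4 stayed the first 2 with the dye term taken off. B2m, the light chain of class I histocompatibility molecules, had a log2 ratio of 0.60 in F8/F3 and 0.48 in M8/M3. For Apoc3 they were Srgap3 (0.941), B2m (0.921) and Ppp1r36 (0.917). With the dye term taken off they became Oat (0.984), Zfp354b (0.980) and Orm3 (0.979), whose log2 ratios in M8/F8 were -1.31, -0.50 and -2.10.

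The shares of called genes among all tested genes, 11.8% in F8/F3, 6.04% in F8/F4, 17.9% in M8/M3 and 6.4% in M8/F8, stand beside the counts of the lists that follow, and nothing particular to a list is read from them. Of 14 lipases and remodelling proteins, 1 was called lower in F8/F3, 2 lower in F8/F4, 2 lower in M8/M3 and none higher in any of these. Lpl, the lipoprotein lipase on which the C apolipoproteins and A-V act, had a log2 ratio of -2.95 in F8/F3 (adjusted p 5.37e-05) and -1.99 in M8/M3 (0.000123), and was higher in males at 8 wk by 1.00 (0.001). Of 18 genes of assembly and secretion, 2 were called higher and 1 lower in M8/M3 and 1 higher in F8/F3. Tm6sf2, which helps to load very low density lipoprotein with lipid, was -1.04 in M8/F8 (7.46e-05), and Sort1, a sorting receptor that binds apolipoprotein B, was 0.84 (0.0165). The median log2 ratio in F8/F3 was 0.21 for the assembly genes and 0.0096 for the lipases.

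Of the 13 lipoprotein receptors and regulators tested in M8/F8, 2 were called lower in males: Vldlr, the receptor for very low density lipoprotein (-1.80, adjusted p 0.0241), and Sdc1, a proteoglycan for remnants (-0.72, 0.00155). Among 19 other apolipoproteins and lipoprotein-borne proteins tested in F8/F3, 3 were called higher and 1 lower, with Apol9b at 0.98 (adjusted p 0.00653), Apol9a at 0.93 (0.00901) and Apol10b at -1.58 (0.0016). Apol9a and Apol9b are near-identical paralogs, and their probes may share targets. Saa4 was 0.89 higher in M8/M3 (0.00308).

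Of 35 regulators of apolipoprotein genes, 3 were called higher and none lower in F8/F3, and 2 higher and 2 lower in M8/M3. Cux2, a repressor more abundant in female than in male liver, was 2.20 in F8/F3 (adjusted p 0.00144) and -3.07 in M4/F4 (0.000447). It was called lower in M8 than in F8, M3 and M4. It was not well above background on most arrays in M8, so the sizes of those ratios are not given. Nr1d1, the clock repressor REV-ERBalpha, was higher at 8 wk by 3.04 in F8/F3 (adjusted p 0.000356) and 2.38 in F8/F4 (0.000823). In males it was higher by 2.96 in M8/M3 (0.000387) and 2.40 in M8/M4 (0.000799). Dbp, a clock output factor, was higher by 2.98 in F8/F3 (0.00628) and 2.75 in M8/M3 (0.00855). Of 12 clock genes tested in F8/F3, 4 were called higher and 2 lower. The part of these changes in the apolipoprotein ratios was not tested. Of 14 genes of the PPARalpha and fasting response, 7 were called lower in M8/M3 and 1 lower and 1 higher in F8/F3, with a median of -0.53 and 0.020. Cyp4a14, a fatty acid hydroxylase and PPARalpha target, was -3.11 in M8/M3 (0.00166).

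The labelled tissue showed its markers, as all 14 hepatocyte genes were well above background in every channel. Of these, none was called higher and 1 lower in F8/F3, and 2 lower in M8/M3, with medians of -0.062 and -0.13. Ahsg, the gene for the plasma protein fetuin-A, was called lower in both, at -0.70 in F8/F3 (adjusted p 0.00125) and -1.25 in M8/M3 (0.000193). Alb, the albumin gene, was called lower in M8/M3 (-0.71, 0.00553) and not in F8/F3 (-0.25, 0.188). Tat, also among the 14, was higher at 8 wk and passed on p in F8/F3 (0.49, 0.000481) and M8/M3 (0.33, 0.00197). In F8/F4 Tat was called higher (0.65, 0.000207) and Ahsg lower (-0.71, 0.00123). By p alone 1 of the 14 was higher and 4 lower in F8/F3, and 3 were higher and 4 lower in M8/M3. Among markers of other cells, erythroid genes were called lower in 6 of 9 in F8/F3, with none higher, and in 5 of 8 in M8/M3, with 1 higher. The higher one, Alas2, which codes for the first enzyme of heme synthesis in erythroid cells and is named here after its values were seen, was 1.37 in M8/M3 (adjusted p 0.00229) and 1.89 in M8/F8 (0.000725). Epb42 and Rhag, genes of the red cell membrane, were well above background on no array at 8 wk. The summed processed signal of the 9 erythroid genes lay between 44117 and 103873 in F3, 52327 and 94854 in F4, 33728 and 57299 in F8, 44912 and 94288 in M3, 53493 and 94808 in M4, and 35389 and 55114 in M8. Mesenchymal genes were called lower in 4 of 9 in F8/F3 and 5 of 9 in M8/M3, with summed signals of 61243 to 135391 in F3, 49361 to 75118 in F8, 63198 to 113026 in M3 and 40084 to 53476 in M8.

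Kupffer cell genes were called lower in males in 6 of 11 in M8/F8, and their summed signal was 23168 to 32665 in M8 and 36656 to 54772 in F8. Kupffer cells and other macrophages also make Apoe, whose M8/F8 ratio was -0.23 (adjusted p 0.163). Of 8 endothelial genes 1 was called lower in F8/F3 and in M8/M3, and of 6 bile duct genes 1 higher and 1 lower in F8/F3. Of 10 genes of intestinal epithelium, which makes Apoa4, Apob and Apoa1, 5 were tested in each female age comparison. None was called in F8/F3, and Slc5a1, a glucose transporter, was called higher in F8/F4 (0.98, adjusted p 0.0343). In M8/M3 Guca2b, which codes for uroguanylin, was called lower (-0.73, 0.0419). Alpi and Lct were well above background on no array of F3 or F8, and the summed signal of the list was 11705 to 27476 in F3, 12965 to 18084 in F4 and 14333 to 23563 in F8. The part of these cell types in the apolipoprotein ratios was not tested.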

How the data were processed

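Liver RNA pools of 6 groups of CD-1 mice were hybridized on 14 two-color Agilent 4x44k v2 arrays, on 4 slides that by their scan times were read on 2 days. The members and the lists of pathway and marker genes were chosen with earlier results of these data known. The authors deposited scanner output of Feature Extraction 10.7.1.1 with, for each spot, red and green intensity in arbitrary units (raw medians and values after background subtraction and dye normalization) and the log10 ratio of red over green, with its modelled error and flags. The deposited series table held the same log10 ratios (largest difference 0). The authors' own averaging of replicates by Rosetta Resolver was not used here.

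Ratios were turned to log2 and to male over female or 8 wk over the younger age, by the labelled dyes. Spots flagged as non-uniform (0 to 10 per array) were left out, and spots of a probe averaged. Probes were named through RefSeq accessions (26055 of 39429 probes). For a gene with several probes, the brightest was used. The fit was made with limma 3.58.1 in R 4.3.3 on all 14 arrays, with a coefficient for each of the 7 comparisons, a dye term, and 6 residual degrees of freedom. P-values were adjusted by Benjamini-Hochberg, jointly for the 7 comparisons and separately for each difference between them. Tested genes were those well above background, on both arrays, in 1 or both groups. All 10 members were to be named, with genes of a list taken from its up to 4 called genes with the largest ratios (not all are printed), and 3 genes most like each called member. Precision was limited by the number of arrays, 2 per comparison.

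The series' design text states that the same pools served all comparisons, so the replicate number marks a shared pool. With the dye term taken off, the deviations of same-numbered arrays that share a pool on the same side of the ratio correlated at 0.20 to 0.66 over 15281 genes (6 pairs of comparisons), and those with a shared pool on opposite sides at -0.16 to -0.029 (4 pairs). Pairs that share no pool ranged from -0.32 to 0.32 (11 pairs), which covers the opposite-side pairs and overlaps the others. The ratio of pool to array variance was estimated at 2.50. Alternatives were no dye term, the replicate or the slide as a block, the shared pools in the covariance, 6 group means, normexp (offset 50) with loess, an error-weighted mean with an unadjusted p below 0.0001, no threshold on the ratio, adjustment within each comparison, bright probes only, the mean over probes, and each array left out in turn. The differences of sex ratios between ages, and the correlations with the dye term taken off, were added after the data were seen. The fit was also run on simulated data, and no outcome of that run is given here. Some genes of the lists are not reported here.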

Additional observations from a re-analysis of the deposited data

Results flagged for a closer look

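Apoa1 had age ratios of opposite sign in the 2 sexes, on every array: the difference M8/M3 minus F8/F3 was 0.54 (adjusted p 0.118) and M8/M4 minus F8/F4 was 0.51 (0.213). In the deposited ratios it was lower in males on both arrays at 3 and at 4 wk and higher on both at 8 wk, though with the dye term taken off the 3 wk arrays read -0.13 and 0.014. The sex ratio at 8 wk had a difference of 0.46 from 3 wk (adjusted p 0.174) and of 0.46 from 4 wk (0.285). The differences of Apoa1 were tested by limma and did not pass.

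Apoa5 was higher in males on both arrays at 4 wk only. M4/F4 minus M3/F3 was 0.43 (adjusted p 0.54) and M8/F8 minus M4/F4 was -0.50 (0.191).

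For Apoc3 the difference between the sexes passed in the fit as reported: M8/M3 minus F8/F3 was -0.35 (adjusted p 0.0401) and M8/F8 minus M3/F3, chosen after the data were seen, was -0.43 (0.0193). With the shared pools in the covariance neither passed (0.127 and 0.0686), and with the replicate as a block only the second did (0.0565 and 0.0308). These share the M8, F8, M3 and F3 pools and are not independent. No group had enough arrays for a search for single outlying arrays.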

How the results depend on the processing

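No direction of a called value reversed. By the series' design text the replicate numbers mark shared pools. With the replicate block, members past an adjusted p of 0.05 were 2 in M8/F8 (1 as reported), 4 in F8/F4 (5 as reported, Apoe being lost) and 0 for M8/M3 minus F8/F3 (1 as reported), and no count of called members moved. Without the dye term, such passes numbered 0 in both sex comparisons that had one (M4/F4, M8/F8), in both male age comparisons and for M8/M3 minus F8/F3, 2 in F8/F3 and 1 in F8/F4, and called members 1 in F8/F3 and 0 in F8/F4: the dye-swapped arrays then differ by the dye effect. With 6 group means there were 3 passes in M4/F4, 5 in M8/F8, 8 in F8/F4, 3 for M8/M3 minus F8/F3 and 3 for M8/M4 minus F8/F4, while called probes over the whole array went from 319 to 470 in M4/F4, from 1469 to 1739 in M8/F8 and from 1433 to 1859 in F8/F4. With the shared pools in the covariance there were 0 in M4/F4, 3 in M8/F8 and 0 for M8/M3 minus F8/F3. That fit also lost Apoc3 in M8/M4 (limma, adjusted p 0.0552) and Apoa2 in M8/M3 (0.0501) and F8/F3 (0.0651). It gained Apoa4 in M8/M3 (0.0333) and Apoa1, lower at 8 wk, in F8/F3 (0.0417). The slide as a block, and normexp with loess, each left 0 in M4/F4 and 0 for M8/M3 minus F8/F3. Adjustment within each comparison left 0 in M4/F4, and bright probes alone gave 3 in M8/F8. The slide block also lost Apoa2 (limma, adjusted p 0.0638) and Apoe (0.0621) in F8/F3, Apoe in F8/F4 (0.0908) and Apoa2 in M8/M3 (0.0525). Normexp with loess lost Apoa2 (0.0641) and Apoc3 (0.0679) in M8/M3 and Apom in M8/M4 (0.0615). It gained Apoa4 in M8/M3 (0.0298) and Apoa2 in F8/F4 (0.0346). Not every shift of a pass is listed here. In M8/M3, 1 member was called instead of 0 with the pool covariance, group means, normexp, adjustment within the comparison, bright probes and the error-weighted mean. With no threshold on the ratio, called members numbered 1 in M4/F4, 1 in M8/F8, 6 in F8/F3, 5 in F8/F4, 4 in M8/M3, 3 in M8/M4 and 1 for M8/M3 minus F8/F3. The cause of these shifts, other than that of the dye term and of the dropped threshold, was not tested.

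With each array left out in turn, called members ranged from 0 to 1 in M8/F8, 0 to 1 in M8/M3, 1 to 2 in F8/F3 and 0 to 1 in F8/F4. Passes on p ranged from 0 to 1 in M4/F4, 1 to 2 in M8/F8, 2 to 6 in F8/F3, 2 to 6 in F8/F4, 1 to 5 in M8/M3, 1 to 3 in M8/M4 and 0 to 1 for M8/M3 minus F8/F3. The lowest counts in F8/F3 came without its second array, the lowest number of passes in M8/M3 without its first, and those in M8/M4 and F8/F4 without either of their own arrays. A lone array was then taken to vary like the others. With 2 arrays per comparison, their number limits the precision.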
